A study of Mus musculus with 6 samples.

Results

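Promoters of protein-coding genes that were only weakly open were examined in intestinal organoids grown from aged and from young mice. The assay, ATAC-seq, uses the transposase Tn5 to cut and tag open chromatin, so that a peak with more counts marks DNA that was more often exposed. A peak was taken as a coding promoter when the deposited annotation gave it to a protein-coding gene and placed it at most 1000 bp from the transcription start site (TSS). It was taken as weakly open when its mean over the 6 libraries was at least 0.5 and under 4 CPM, that is, counts scaled to a library total of 1000000. These peaks were thus selected on a measured value, the mean level, which does not use the difference between the ages. A peak can still pass the lower bound through the group where it is high. Sh3gl3 averaged 0.244 CPM in aged and 1.61 CPM in young libraries, and Lin28b averaged 1.23 CPM in aged and 0.359 CPM in young libraries. The rule found 2738 peaks at 2561 genes, out of 12285 coding promoter peaks and 156733 consensus peaks in all. Of the other coding promoters, 8812 had 4 CPM or more and 735 had under 0.5 CPM. Just inside the lower bound lay Galnt18 (0.5001 CPM) and Depdc7 (0.5002 CPM), and just outside it Tbx4 (0.4990 CPM) and Pde11a (0.4991 CPM). At the upper bound, Gata2 (3.991 CPM) and Vim (3.992 CPM) were inside, and Lhfpl5 and Tsga10ip (4.001 CPM each) outside.

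The aged group held 3 libraries from C57BL/6JRj mice aged 20 to 22 months, and the young group 3 libraries from mice of the same strain aged 2 to 3 months. Organoids are epithelial cultures in which stem cells and their differentiated progeny grow together in a gel. They were cultured for 3 to 5 weeks without treatment and harvested at passage 4 (replicate 1), passage 3 (replicate 2) or passage 2 (replicate 3), with 1 aged and 1 young library at each passage. No label states that different mice gave the replicates of an age, so p-values measure the spread between these cultures, which may be technical.

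A promoter is the stretch of DNA around a gene's start at which RNA polymerase is loaded. At genes that a cell uses it is usually kept free of nucleosomes and gives a tall ATAC-seq peak. Genes reserved for other tissues, such as the homeobox regulators of body patterning or the receptors of nerve cells, often keep promoters rich in CpG, the dinucleotide at which mammalian DNA is methylated, and these can stay slightly open with little transcription. An ATAC-seq level describes access to the DNA and not the amount of RNA made. In a culture of many cells, a lower level can also mean that fewer cells had the site open, and both readings cannot be told apart here.

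The promoter sequences below, from RefSeq on GRCm38.p6, belong to the 4 higher and the 4 lower called genes with the smallest p-values among those eligible to be shown, so that the base composition of called promoters can be read beside their values. Each runs from 250 bases before to 50 bases after the annotated start, on the strand of the gene, 5′ to 3′, with every CpG in capitals. The promoters that were more open in aged organoids lay at chr7:33173812-33174111 on the minus strand (Scgb2b18), chr4:115600688-115600987 on the plus strand (Cyp4a32), chr9:114329885-114330184 on the plus strand (Bcl2a1c) and chr11:43836440-43836739 on the minus strand (Adra1b).
Scgb2b18: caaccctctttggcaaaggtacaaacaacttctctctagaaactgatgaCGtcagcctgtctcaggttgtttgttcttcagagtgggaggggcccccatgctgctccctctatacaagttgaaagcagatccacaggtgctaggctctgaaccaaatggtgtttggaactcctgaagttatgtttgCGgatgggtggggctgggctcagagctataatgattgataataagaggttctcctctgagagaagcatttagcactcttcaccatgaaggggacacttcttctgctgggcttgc
Cyp4a32: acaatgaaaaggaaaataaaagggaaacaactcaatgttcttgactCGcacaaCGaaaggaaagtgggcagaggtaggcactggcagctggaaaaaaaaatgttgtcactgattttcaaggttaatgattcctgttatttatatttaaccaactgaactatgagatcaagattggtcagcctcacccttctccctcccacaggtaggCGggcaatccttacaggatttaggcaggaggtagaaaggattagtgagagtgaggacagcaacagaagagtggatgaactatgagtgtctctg
Bcl2a1c: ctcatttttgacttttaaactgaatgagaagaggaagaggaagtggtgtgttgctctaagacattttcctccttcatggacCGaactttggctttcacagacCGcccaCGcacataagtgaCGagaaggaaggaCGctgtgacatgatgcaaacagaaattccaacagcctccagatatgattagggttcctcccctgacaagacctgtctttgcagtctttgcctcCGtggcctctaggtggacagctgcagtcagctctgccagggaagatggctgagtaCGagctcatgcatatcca
Adra1b: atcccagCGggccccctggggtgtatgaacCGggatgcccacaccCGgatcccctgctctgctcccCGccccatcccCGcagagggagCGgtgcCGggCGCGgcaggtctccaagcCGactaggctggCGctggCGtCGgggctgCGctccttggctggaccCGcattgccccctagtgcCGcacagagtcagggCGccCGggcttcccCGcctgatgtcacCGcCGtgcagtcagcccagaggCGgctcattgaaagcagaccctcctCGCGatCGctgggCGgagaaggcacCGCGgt

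The promoters that were less open in aged organoids lay at chr1:32172472-32172771 on the plus strand (Khdrbs2), chr13:12340683-12340982 on the minus strand (Actn2), chr6:12749204-12749503 on the minus strand (Thsd7a) and chr11:45980060-45980359 on the plus strand (Sox30).
Khdrbs2: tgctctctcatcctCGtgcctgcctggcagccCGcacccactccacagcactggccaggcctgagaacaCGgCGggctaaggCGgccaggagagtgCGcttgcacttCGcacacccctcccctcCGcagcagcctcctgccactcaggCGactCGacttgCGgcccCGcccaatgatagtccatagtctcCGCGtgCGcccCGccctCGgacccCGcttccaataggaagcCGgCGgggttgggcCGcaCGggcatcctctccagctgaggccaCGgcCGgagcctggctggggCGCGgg
Actn2: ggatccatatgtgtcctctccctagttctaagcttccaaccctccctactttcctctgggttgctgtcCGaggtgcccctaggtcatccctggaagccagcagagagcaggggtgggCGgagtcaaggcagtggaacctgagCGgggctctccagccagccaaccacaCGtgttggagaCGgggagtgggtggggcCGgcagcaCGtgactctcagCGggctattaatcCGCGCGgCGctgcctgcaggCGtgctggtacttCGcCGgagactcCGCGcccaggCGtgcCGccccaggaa
Thsd7a: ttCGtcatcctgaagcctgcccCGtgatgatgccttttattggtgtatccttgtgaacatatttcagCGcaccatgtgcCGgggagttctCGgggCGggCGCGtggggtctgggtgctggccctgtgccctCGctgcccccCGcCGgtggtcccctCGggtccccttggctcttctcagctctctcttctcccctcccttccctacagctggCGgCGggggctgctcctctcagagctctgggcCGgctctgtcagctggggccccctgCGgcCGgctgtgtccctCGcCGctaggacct
Sox30: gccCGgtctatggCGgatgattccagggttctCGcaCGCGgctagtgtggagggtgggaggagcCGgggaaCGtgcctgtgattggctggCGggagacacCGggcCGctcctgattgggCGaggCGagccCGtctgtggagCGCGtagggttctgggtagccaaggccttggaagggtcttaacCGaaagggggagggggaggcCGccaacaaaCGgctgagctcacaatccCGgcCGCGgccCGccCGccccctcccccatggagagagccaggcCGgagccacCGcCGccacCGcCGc

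Across all 32851 windows of the RefSeq promoter table the median was 7 CpG, with quartiles of 3 and 20. The windows of Scgb2b18, Cyp4a32 and Bcl2a1c held 2, 3 and 7 CpG, and that of Adra1b held 28. The 4 windows of the lower genes held 26 (Khdrbs2), 19 (Actn2), 19 (Thsd7a) and 28 (Sox30). The letters TATAAA, searched on both strands, occurred in the Cyp4a32 window alone among the 8, and in 13.6% of all windows. The letters TGACGTCA, which read the same on both strands, occurred in the Scgb2b18 window and in 1.79% of all windows. CACGTG, also the same on both strands, occurred at 2 places in the Actn2 window and in 7.15% of all windows. GGGCGG was present in Bcl2a1c, Adra1b and all 4 lower windows (35.7% of all windows). CCAAT was present in Cyp4a32, Khdrbs2, Thsd7a and Sox30 (37.4% of all windows), and in Khdrbs2 1 copy overlapped a copy of GGGCGG on the other strand. The ETS motif CCGGAAG (8.86% of all windows) was absent from the 8 windows on both strands. The AP-1 motif TGANTCA (7.81%), the GATA motif AGATAA (11.2%) and the HNF4 motif CAAAGTCCA (0.475%) were absent from them too. Only 811 of the 2738 peaks (29.6%) overlapped a window of the table, below the 80% needed, so a check of CpG content over all weakly open promoters was void and is not reported.

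Weakly open promoters were narrower and lay further from the start site than coding promoters of 4 CPM or more. Counts were not scaled to peak length, so the bound on CPM itself favours narrow peaks. Their median width was 292 bp (quartiles 171 and 475 bp) and their median distance to the TSS 328 bp, against 860 bp and 161 bp for the coding promoters of 4 CPM or more. The annotation classed 1740 of them (63.6%) as promoter-TSS, 435 as exon, 478 as intron and 85 as transcription termination site. A group of 491 peaks (17.9%) belonged to genes that also had a coding promoter peak of 4 CPM or more. These side peaks had a median width of 157 bp and a median distance of 781 bp. The remaining 2247 peaks were at genes without a stronger coding promoter peak and had a median width of 331 bp and a median distance of 239 bp.

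The level that defined the set also fixed which gene groups it held. Of 135 developmental transcription factor genes with a coding promoter peak, 79 (58.5%) had a weak one and none of 4 CPM or more, compared with 2076 of 11135 genes overall (18.6%). The same share was 45.3% for voltage-gated ion channels, 43.9% for collagens, glypicans and other matrix genes and 37.8% for axon guidance and synapse genes. It was 6.88% for the Zfp family of zinc finger genes and 4.76% for ribosomal protein genes. Among the genes of the gut epithelium itself it was 18.5% for enterocyte genes, 37.1% for goblet, Paneth and antimicrobial genes, 45.5% for enteroendocrine genes and 50% for tuft cell genes.

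The libraries held 22363682, 21687816 and 26093521 counts in peaks in the aged group and 7278161, 25901670 and 19208483 in the young group. A weakly open promoter had a median of 33, 34 and 40 counts in the aged libraries and of 11, 47 and 28 in the young ones, and 1204 of the 2738 had under 10 counts in young replicate 1. These promoters together took 0.468%, 0.493% and 0.490% of the counts in aged libraries, against 0.462%, 0.569% and 0.473% in young libraries. Young replicate 2 stood apart: it was the highest of the 6 libraries at 891 of these promoters (32.5%), while each other library was the highest at 11.1% to 15.2%. The same library was the highest at 14.9% of coding promoters of 4 CPM or more and at 18.2% of other peaks of 0.5 to 4 CPM. The counts of calls and the list medians that rest on it are therefore also given without it.

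**Figure D1:**
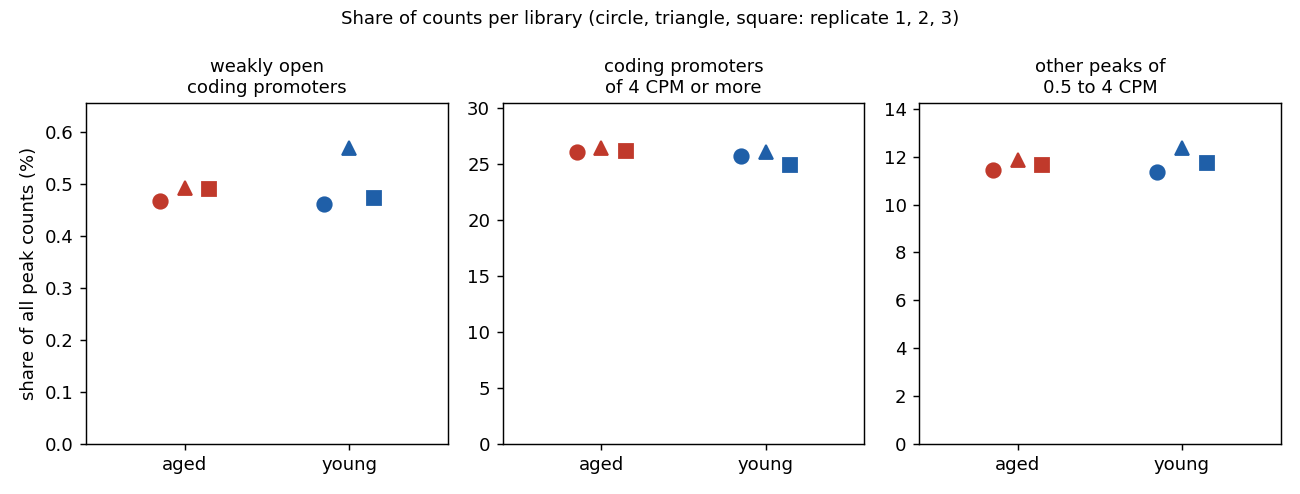
Share of all peak counts (%, y axis) that each library held in weakly open coding promoters, in coding promoters of 4 CPM or more and in other peaks of 0.5 to 4 CPM, with aged libraries on the left and young libraries on the right of each panel. In weakly open promoters young replicate 2 (triangle) lies at 0.569%, above the other 5 libraries at 0.462% to 0.493%.

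The cultures carried open promoters of epithelial genes. Of 12 epithelial marker genes 9 had a coding promoter peak, 8 of them at 4 CPM or more, and their summed level was 361 to 380 CPM in aged and 333 to 376 CPM in young libraries (Vil1, Krt19 and Elf3 had no peak given to them). Of 12 immune markers 10 had no such peak, including Ptprc, Cd3e and Csf1r, and the sum was 1.62 to 1.93 CPM in aged and 1.95 to 2.48 CPM in young libraries. Of 7 endothelial markers 5 had none, including Pecam1 and Cdh5, and the sum was 1.94 to 2.29 CPM in aged and 2.77 to 4.02 CPM in young libraries. Of 10 stromal markers 5 had none, including Col3a1 and Dcn, and the sum was 24.9 to 30.0 CPM in aged and 21.2 to 27.9 CPM in young libraries. Of 8 markers of enteric neurons and glia 3 had none, including Elavl4, and the sum was 56.1 to 58.5 CPM in aged and 46.9 to 57.5 CPM in young libraries. Promoter peaks of 4 CPM or more were found at 4 of these 8 genes, at 1 stromal marker and at no immune or endothelial marker. No marker promoter was called between the ages. The immune and endothelial sums did not overlap between the ages, and their part in the results below was not tested.

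The first question was which weakly open promoters differed between aged and young organoids. More of them were less open in aged organoids than were more open: 74 peaks fell and 14 rose, out of 2728 tested (edgeR's quasi-likelihood test, Benjamini-Hochberg adjusted p under 0.05 over all peaks). The falls included Rab38, a gene of pigment granules, the netrin receptor gene Unc5d and the muscle gene Actn2, and the rises included the innate immune gene Dhx58 and the secretoglobin gene Scgb2b18. The share that fell was 2.71%, beside 0.51% of all 132055 peaks tested, and the share that rose was 0.513%, beside 0.619% of all peaks tested. Among coding promoters of 4 CPM or more, 30 (0.34%) fell and 28 (0.318%) rose of 8812. Among other peaks of 0.5 to 4 CPM, 355 (0.474%) fell and 437 (0.583%) rose of 74903. The median log2 fold change, aged over young, was -0.05 over the weakly open promoters, -0.01 over all peaks and 0.04 over the coding promoters of 4 CPM or more. Whether weakly open promoters differ from the other peaks in these shares was not tested, and the values stand side by side as a description.

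**Figure D2:**
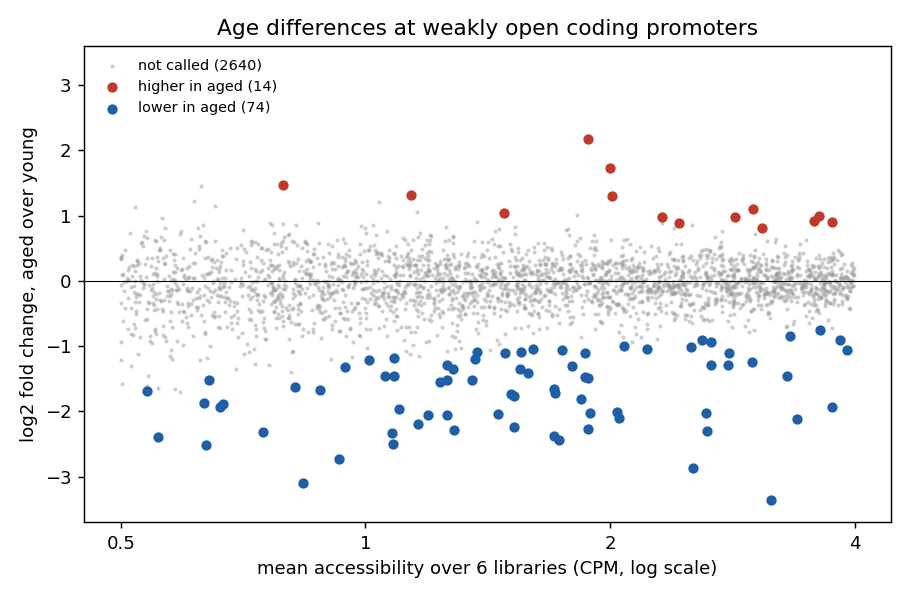
Log2 fold change, aged over young (y axis), against mean accessibility in CPM on a log scale (x axis) for the 2728 weakly open coding promoters tested. Blue points are the 74 promoters called lower and red points the 14 called higher in aged organoids, and the blue points reach further from 0 than the red.

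With all 6 libraries, falls outnumbered rises in each bin of level from 0.5 to 8 CPM. Of coding promoters of 0.5 to 1 CPM, 13 of 738 (1.76%) fell, of 1 to 2 CPM 39 of 959 (4.07%), and of 2 to 4 CPM 22 of 1031 (2.13%). Just above the upper bound, at 4 to 8 CPM, 18 of 1163 (1.55%) fell and 8 (0.688%) rose, and at 32 CPM and over 0 of 3158 fell and 4 rose. In peaks other than coding promoters the same bins of 0.5 to 1, 1 to 2 and 2 to 4 CPM had falls at 0.227%, 0.529% and 0.734%. Without young replicate 2, the falls in the bins of 0.5 to 1, 1 to 2, 2 to 4 and 4 to 8 CPM were 5 of 736 (0.679%), 26 of 959 (2.71%), 13 of 1031 (1.26%) and 14 of 1163 (1.2%). In the same bins and the same fit, 1, 4, 9 and 10 rose, and the median log2 fold changes were 0.08, 0.08, 0.05 and 0.07. With all libraries, the share of weakly open promoters that rose was 0.136%, 0.417% and 0.873% in the 3 bins from 0.5 to 4 CPM.

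**Figure D3:**
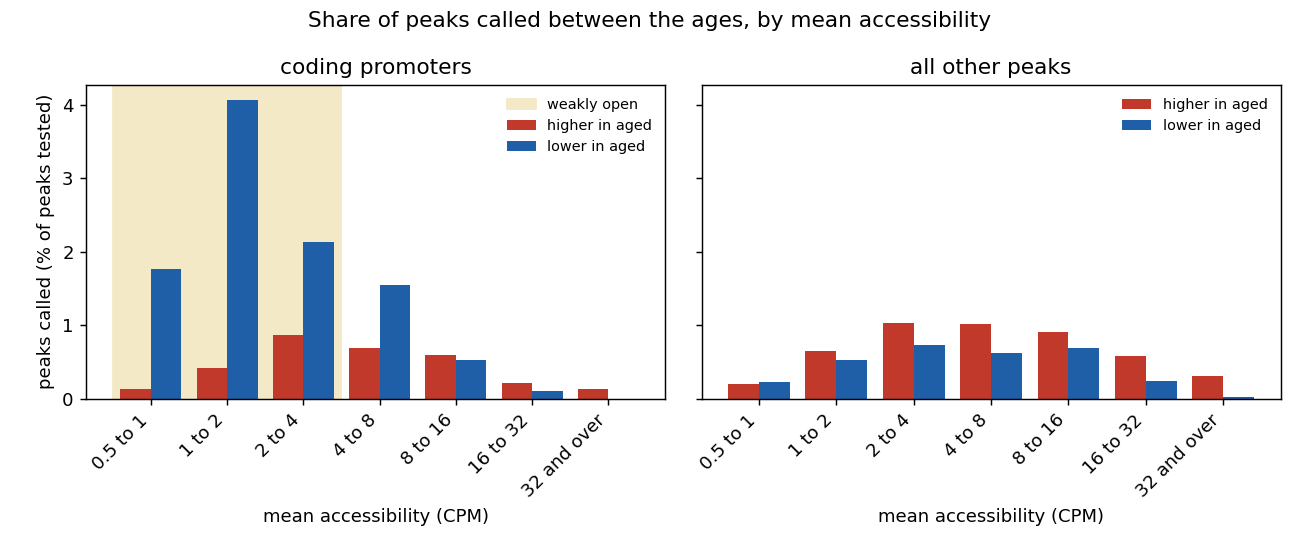
Percent of tested peaks called higher (red) or lower (blue) in aged organoids (y axis), by bin of mean accessibility in CPM (x axis), for coding promoters on the left, where the shaded bins are the weakly open ones, and for all other peaks on the right, with all 6 libraries. Falls peak at 4.07% for coding promoters of 1 to 2 CPM, while no bin of other peaks exceeds 0.734% for falls.

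The number of falls depended on the young library that stood apart. Without young replicate 2, 44 weakly open promoters fell (background 0.621% of all peaks) and 14 rose (background 0.783%), and the median log2 fold change was 0.07. Of the 74 promoters that fell, 41 were still called without that library, and all 74 kept a negative log2 fold change, with a median of -1.48 in place of -1.59. These 74 were picked as falls with the same libraries, so keeping their sign is no separate support. Over all weakly open promoters, the share with a negative log2 fold change was 56.8% with all libraries and 43% without young replicate 2. That library was the highest of the 6 at 47 of the 74. Taking the pairs by passage, the median log2 ratio of aged to young over the weakly open promoters was 0.04 in pair 1, -0.14 in pair 2 and 0.06 in pair 3. In coding promoters of 4 CPM or more it was 0.03, 0.03 and 0.07. With the replicate number as a block, 112 weakly open promoters fell (background 1.21%) and 28 rose (background 1.46%), and these held all 74 and all 14 of the calls without the block.

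Nearly all of the age calls were at genes whose only coding promoter peaks were weak. At genes without a peak of 4 CPM or more, 73 of 2237 tested promoters fell (3.26%) and 13 rose, with a median log2 fold change of -0.07. At the 491 side peaks of genes that also had a stronger peak, 1 fell (0.204%) and 1 rose, with a median of 0.01. Without young replicate 2, 44 of 2235 promoters fell (1.97%) at genes without a stronger peak, with a median of 0.06, and 0 of 491 side peaks fell, with a median of 0.10. The side peak that fell belonged to Peg3, an imprinted gene expressed from the paternal allele, whose stronger promoter peak (4.33 CPM on average) also fell, with a log2 fold change of -1.87 (adjusted p = 2.07e-07). The Peg3 side peak overlapped between the ages, with 0.902 CPM in aged and 0.836 CPM in young replicate 1. Its call was lost without young replicate 2 (adjusted p = 0.272). The side peak that rose belonged to Dhx58, and of the 2 stronger peaks of Dhx58 1 rose (log2 0.65, adjusted p = 0.0408) and the other had a log2 fold change of -0.15 (adjusted p = 0.851). Both called side peaks lay 92 bp from the annotated start, against a median distance of 781 bp over all side peaks.

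All 14 promoters called higher and 72 of the 74 called lower had no overlap between the ages. Calls favour such promoters, so a lack of overlap at a called gene is no separate support. The share of all peaks without overlap is not given here. Of the promoters that rose, that of Scgb2b18, a secretoglobin of the androgen-binding protein family, had 2.66, 3.62 and 3.08 CPM in aged libraries, against 0.697, 1.05 and 0.890 CPM in young libraries. The lowest aged library lay above the highest young one, and the means were 3.12 ± 0.482 CPM in aged and 0.879 ± 0.178 CPM in young libraries (SD, n = 3 each; log2 1.73, SE 0.25, adjusted p = 4.2e-05). The promoter of Eif4ebp3, which encodes a repressor of cap-dependent translation, had 55, 65 and 107 counts in aged libraries, against 0, 19 and 19 counts in young libraries. The library at 0 was the shallowest, where 0 counts allow up to 0.412 CPM, and the log2 fold change was 2.18 (SE 0.33, adjusted p = 0.00016), lost only in DESeq2 (adjusted p = 0.0592).

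Dhx58 encodes LGP2, a helicase of the RIG-I family that senses viral RNA. Its weak promoter peak had 3.38, 2.75 and 2.62 CPM in aged libraries, against 0.836, 1.24 and 1.26 CPM in young libraries. All 3 aged libraries were higher than every young one, and the log2 fold change was 1.30 (SE 0.24, adjusted p = 0.0016). The promoter of Cyp4a32, a cytochrome P450 of fatty acid hydroxylation, had 4.02, 4.04 and 3.55 CPM in aged libraries, against 1.39, 2.18 and 1.94 CPM in young libraries. The groups did not overlap, and the fold was 1.98 (log2 0.98, SE 0.21, adjusted p = 0.0067). Scgb2b18, Dhx58 and Cyp4a32 kept their call in every alternative that was run.

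Mat1a, which makes S-adenosylmethionine in liver, averaged 4.06 ± 0.729 CPM in aged and 1.95 ± 0.257 CPM in young libraries (SD, n = 3 each). Spaca4, a sperm protein of fertilization, averaged 4.75 ± 0.282 CPM in aged and 2.50 ± 0.413 CPM in young libraries. Adra1b, the alpha-1B adrenergic receptor, averaged 4.98 ± 0.812 CPM in aged and 2.50 ± 0.997 CPM in young libraries. These 3 rose by log2 1.11, 0.99 and 0.90, and lost their calls in 2, 1 and 5 of the alternatives. The caspase recruitment domain gene Card6 (log2 0.91) and the BCL2 family genes Bcl2a1c (0.98) and Bcl2a1d (1.32) also rose. So did the mitochondrial ribosome gene Mrps5 (0.89) and the GTPase-activating gene Srgap3 (0.81). Each of these 5 lost its call in 4 to 9 of the alternatives. Lin28b, an RNA-binding repressor of let-7 microRNAs, rose by log2 1.47 (adjusted p = 0.0422) and Gucd1 by 1.05 (adjusted p = 0.0493). With 1 library left out, Lin28b kept its call in 1 of 6 fits and Gucd1 in 0 of 6. Bcl2a1c and Bcl2a1d are near-identical copies of one gene family, as are many Scgb2b genes, so reads may be split between copies and their values are uncertain.

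**Figure D4:**
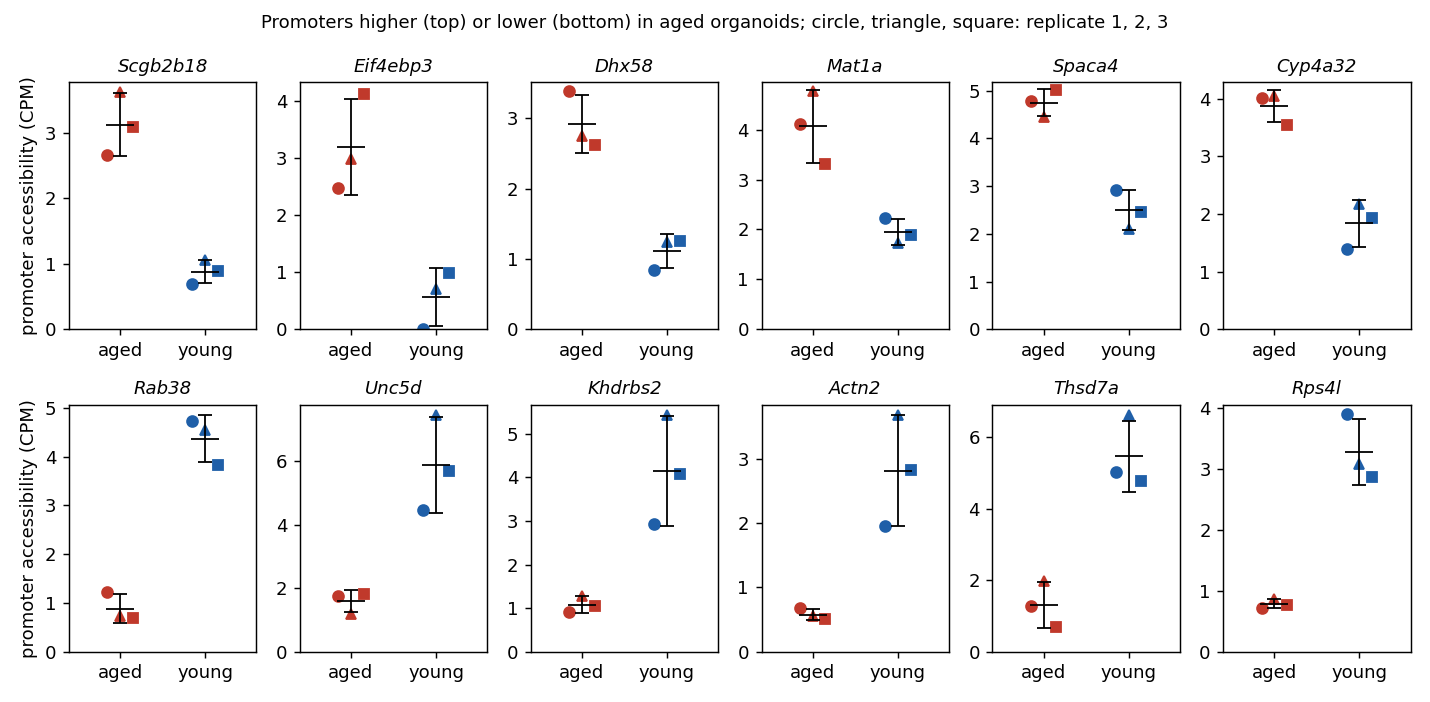
Accessibility in CPM (y axis) of 12 promoters in each library, aged on the left and young on the right of each panel, with the mean and SD of 3 libraries in black; the 6 promoters in the top row were called higher and the 6 in the bottom row lower in aged organoids. In every panel the 3 aged points do not overlap the 3 young points. The panels were chosen by smallest p and the same sign in all 3 pairs, so this is no separate support.

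Among called promoters, those that fell were more often changed by a factor of at least 2. The log2 fold change was -1 or lower at 68 of the 74, and it was 1 or higher at 7 of the 14 that rose. Of all 2728 weakly open promoters tested, 115 changed by at least that factor. The median level was 1.55 CPM over those that fell and 2.38 CPM over those that rose, and the part of level was not tested. Rab38, a small GTPase of melanosome formation, had 1.22, 0.734 and 0.694 CPM in aged libraries, against 4.74, 4.54 and 3.82 CPM in young libraries. Young replicate 2 was not the highest here, and the log2 fold change was -2.30 (SE 0.24, adjusted p = 1.4e-07). The promoter of Unc5d, a netrin receptor of migrating neurons, had 1.76, 1.19 and 1.81 CPM in aged libraries, against 4.46, 7.47 and 5.71 CPM in young libraries. Its log2 fold change was -1.94 (SE 0.21, adjusted p = 2.4e-07) with all libraries and -1.71 without young replicate 2, the highest library (adjusted p = 1.7e-05).

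Khdrbs2 encodes an RNA-binding splicing regulator of neurons. Its promoter, one of the CpG-rich sequences above, had 0.902, 1.28 and 1.04 CPM in aged libraries, against 2.93, 5.44 and 4.08 CPM in young libraries. The young libraries differed among themselves by more than the aged ones did, yet the lowest young value was above the highest aged one (log2 -2.03, SE 0.24, adjusted p = 9.5e-07). Actn2, the alpha-actinin of the muscle Z-disc, had 0.677, 0.550 and 0.501 CPM in aged libraries, against 1.95, 3.68 and 2.83 CPM in young libraries. Thsd7a, a thrombospondin-domain membrane protein, had 1.26, 1.97 and 0.694 CPM in aged libraries, against 5.02, 6.61 and 4.76 CPM in young libraries. Neither overlapped between the ages, and the log2 fold changes were -2.38 and -2.11. Sox30, a transcription factor of sperm development, averaged 0.664 ± 0.206 CPM in aged and 3.08 ± 1.05 CPM in young libraries (SD, n = 3 each), with a log2 fold change of -2.26 (adjusted p = 4.6e-06).

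The other named promoters that fell were those of Rps4l, a ribosomal protein S4-like gene (4.01-fold lower), Pih1h3b (log2 -2.03), Sh3gl3, an endophilin of membrane bending (-2.73), Rad51ap2 (-2.25), Zcchc3, a co-sensor of viral nucleic acid (-2.29), and Cntln, a centrosomal protein gene (-2.06). Sh3gl3 was the faintest, with 7, 4 and 6 counts in aged libraries, against 10, 44 and 34 counts in young libraries. All 12 named lower promoters kept their call in every alternative that could test them, young replicate 2 left out included. Of all 74, 36 kept their call with each of the 6 libraries left out in turn. The largest fall of all was at 9030624G23Rik, a predicted gene on chromosome 12, with 0.532 ± 0.174 CPM in aged and 5.78 ± 1.60 CPM in young libraries (log2 -3.36, adjusted p = 7.3e-10). Of the 74 peaks 15 carried such clone or predicted names, and several of them lie among repeated gene copies, where reads may be shared, so their values are uncertain.

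Of the 88 called peaks, 9 adjacent pairs lay within 250 kb of each other, and both peaks of each pair fell. As 74 of the 88 calls were falls, most pairs of calls would hold falls alone. Whether called promoters lie closer together than other weakly open ones was not tested. Without young replicate 2, both peaks were still called in 3 of the 9 pairs, which were Alx1 with Lrriq1 and 2 pairs of predicted genes. Alx1 and Lrriq1 lay 207 kb apart on chromosome 10. Ryr2, the calcium release channel of heart muscle, lay 233 kb from Actn2 on chromosome 13, and its call (adjusted p = 0.0485) was lost with any 1 of the 6 libraries left out. In the HoxD cluster on chromosome 2, Hoxd11, Hoxd9 and Hoxd1 fell, with log2 fold changes of -1.50, -1.01 and -1.72. Fam19a5 and the N-cadherin gene Cdh2 each had 2 peaks that fell, so those pairs share a gene and are not independent. Hoxd9 was counted in 2 pairs. The predicted genes Gm20499 and 2610524H06Rik lay 0.717 kb apart, and Gm21370 and Gm21188 lay 8.19 kb apart, so these pairs may not be independent either.

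Among developmental transcription factors, the regulators of body patterning, 7 of 101 tested promoters fell and none rose, so 6.93% fell beside 2.71% of weakly open promoters and 0.51% of all peaks. Their median log2 fold change was -0.21 with all libraries and 0.01 without young replicate 2, beside -0.05 and 0.07 over all weakly open promoters. Alx1, a homeobox gene of facial development, had 0.632, 0.642 and 0.462 CPM in aged libraries, against 2.23, 3.12 and 1.62 CPM in young libraries. Hoxd1 had 1.08, 0.550 and 0.732 CPM in aged libraries, against 2.93, 3.08 and 1.88 CPM in young libraries. Neither gene overlapped between the ages. Zic1, Hoxd11, Tbx18, Hoxd9 and Hoxc10 also fell, by log2 -1.73, -1.50, -1.06, -1.01 and -1.63. Without young replicate 2 the promoters of Alx1, Hoxd1, Zic1 and Tbx18 were still called, while Hoxd11 (adjusted p = 0.0754), Hoxd9 (0.102) and Hoxc10 (0.513) were not. Over the 20 Hox promoters tested, 4 fell, 13 had a negative log2 fold change and the median was -0.16, or -0.02 without young replicate 2. Of all weakly open promoters 56.8% had a negative log2 fold change, or 43% without young replicate 2.

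Protocadherins and cadherins, the adhesion molecules with which cells recognise each other, had 3 falls at 16 tested promoters and none that rose, so 18.8% fell beside 2.71% of weakly open promoters and 0.51% of all peaks, but 2 of the 3 falls were at 1 gene. Their median log2 fold change was -0.56 with all libraries and -0.46 without young replicate 2. The falls were at Pcdhgb7 (log2 -1.47) and at both peaks of Cdh2 (-1.87 and -1.47). The Cdh2 peak at -1.87 had 7, 4 and 9 counts in aged libraries, against 4, 26 and 27 counts in young libraries. With 1 library left out, that peak kept its call in 4 of 6 fits and the other Cdh2 peak in 2 of 6. Pcdhgb7 had 0.993, 0.413 and 1.54 CPM in aged libraries, against 2.37, 2.63 and 3.25 CPM in young libraries. The groups did not overlap, and the call held without young replicate 2 (adjusted p = 0.0117), as did that of 1 of the Cdh2 peaks. Of the 7 gamma-protocadherin promoters tested, which lie in 1 cluster of similar genes, 1 was called and 6 had a negative log2 fold change. The negative share of all weakly open promoters was 56.8%. Pcdhga12 (log2 -1.71, adjusted p = 0.0525) and Pcdhgb4 (-1.62, adjusted p = 0.0699) did not pass the test. Promoters of this cluster resemble each other, and reads may be shared among them.

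Axon guidance and synapse genes had 3 falls at 39 tested promoters (7.69%, beside the same 2.71% and 0.51%), among them Unc5d and the calcium-binding protein gene Calb2 (log2 -2.51), and none rose. Calb2 had 0.451, 0.229 and 0.308 CPM in aged libraries, against 1.67, 2.59 and 1.20 CPM in young libraries, with no overlap. The list's median log2 fold change was -0.14, and 0.03 without young replicate 2, when 2 of its promoters were called lower. Voltage-gated ion channels had 1 fall at 41 tested promoters (2.44%, beside the same 2.71% and 0.51%), at the calcium channel subunit gene Cacng3 (log2 -1.35). Cacng3 lost its call without young replicate 2 (adjusted p = 0.107). Matrix genes had no call at 34 tested promoters and a median of -0.13, or 0.05 without that library. Kcnd2, a potassium channel gene with a log2 fold change of -0.89, overlapped between the ages and did not pass the test (adjusted p = 0.118).

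Interferon response genes and nucleic acid sensors had 1 rise, Dhx58, and no fall at 31 tested promoters. Their median log2 fold change was 0.15 with all libraries and 0.19 without young replicate 2. Zcchc3, named above as a co-sensor of viral nucleic acid, was not on this list and fell (log2 -2.29). The lists in this paragraph held 1 call each, beside 0.513% rising and 2.71% falling over all weakly open promoters. The shares over all peaks were 0.619% and 0.51%. Ifi44l had 2.35, 2.16 and 2.54 CPM in aged libraries, against 1.67, 1.65 and 1.10 CPM in young libraries. The libraries of Ifi44l did not overlap between the ages, yet it did not pass the test (log2 0.70, adjusted p = 0.233). Irf9, a subunit of the factor that carries interferon signals to DNA, had a log2 fold change of 0.72 (adjusted p = 0.342). Xenobiotic enzymes had 1 rise, Cyp4a32, at 41 tested promoters and a median of 0.01. Keratins, secretoglobins and cornified envelope genes had 1 rise, Scgb2b18, at 21 tested promoters, with a median of 0.17, or -0.01 without young replicate 2.

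**Figure D5:**
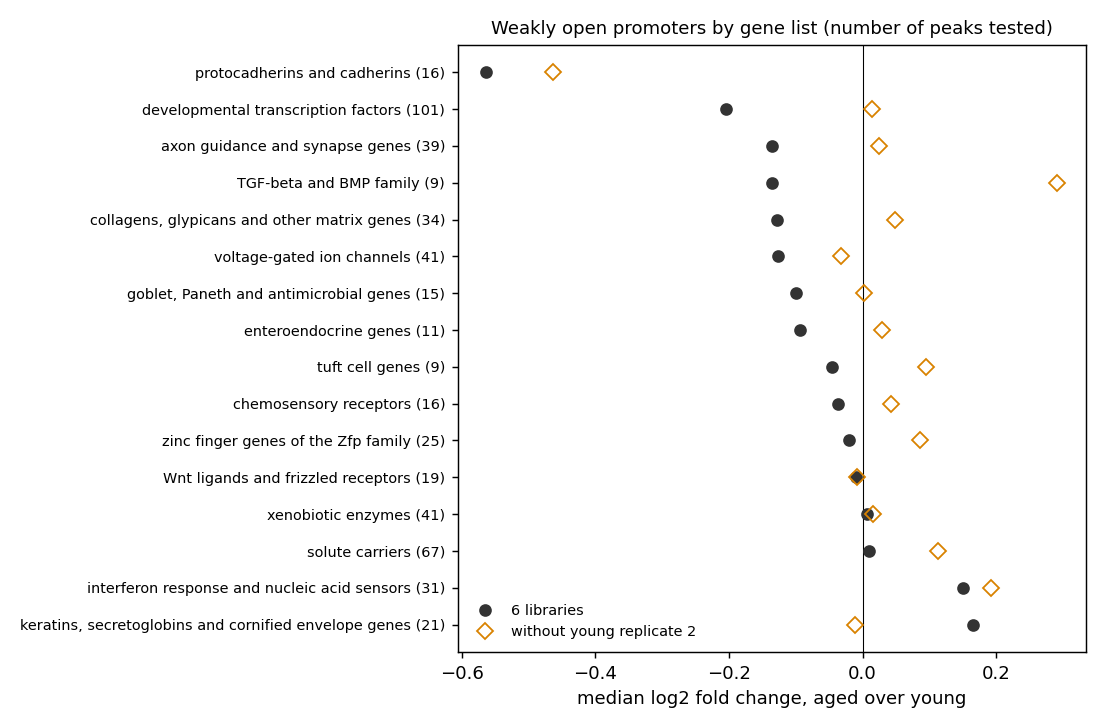
Median log2 fold change, aged over young (x axis), of the weakly open promoters of each gene list with at least 9 promoters tested (y axis, number tested in parentheses), with all 6 libraries (filled circles) and without young replicate 2 (open diamonds). Protocadherins and cadherins lie lowest in both fits (-0.56 and -0.46), while developmental transcription factors move to 0.01 (-0.21 with all libraries).

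Of 40 tested promoters in the 4 lists of the gut's own cell types 1 was called (2.5%), beside 3.23% of weakly open promoters and 1.13% of all peaks called in either direction. None of 5 enterocyte, 15 goblet, Paneth and antimicrobial, and 9 tuft cell promoters tested was called. Krt20, a keratin of mature enterocytes, averaged 3.00 CPM in aged libraries and 2.32 CPM in young libraries, and did not pass the test (adjusted p = 0.522). Of 11 enteroendocrine promoters 1 fell, Scg3, a secretogranin of hormone granules, with 1.90, 2.16 and 1.66 CPM in aged libraries, against 2.37, 4.36 and 3.51 CPM in young libraries. Scg3 did not overlap between the ages but lost its call without young replicate 2 (adjusted p = 0.182). The solute carriers, transporters of nutrients and ions, had no call at 67 tested promoters and a median of 0.01. The immune cell markers had no call at 5, and the TGF-beta and BMP family none at 9. The Wnt ligands and frizzled receptors had none at 19, with a median of -0.01.

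The remaining lists held single calls, beside falls at 2.71% of weakly open promoters and 0.51% of all peaks. Of 16 chemosensory receptor promoters 1 fell, Olfr658, an olfactory receptor (log2 -1.06, adjusted p = 0.0334). Of 2 germline and meiosis promoters 1 fell, Tex15, which is needed for meiotic DNA repair in the testis (log2 -1.04, adjusted p = 0.0233). That list left out Sox30, which fell, and Spaca4, which rose, both named above as genes of sperm. Of 25 promoters of the Zfp family 1 fell, Zfp105 (log2 -1.46, adjusted p = 0.007). Of 7 ribosomal protein promoters 1 fell, that of Rps4l, and the 1 housekeeping promoter in the set, a weak peak near Actb, was not called (log2 0.08). Olfr658, Tex15 and Zfp105 lost their calls without young replicate 2, whereas Rps4l did not.

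The second question was whether weakly open promoters changed with passage, tested as a slope beside age. No weakly open promoter rose or fell with passage (edgeR's quasi-likelihood test, adjusted p under 0.05), against 4 of 132055 peaks in all (0.00303%). At an unadjusted p under 0.05 there were 148 of 2728 weakly open promoters (5.43%) and 5.27% of all peaks, and no other tool was run for passage. The smallest adjusted p among them was 0.307, and the median slope was 0.00 log2 per passage. Each passage held 1 aged and 1 young library, and passage and replicate number are the same variable, so they cannot be told apart.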

How the data were processed

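The authors deposited unnormalised counts per consensus peak, made with featureCounts per the file headers, together with a table that annotates these peaks (GRCm38). Tools named in the submitters' processing notes include BWA 0.7.17-r1188, MACS2 2.2.7.1, featureCounts 2.0.1 and Picard 2.23.1. The Tn5 shift and the handling of duplicates are not given in the sources used here. Without molecular identifiers, floors (3 counts) cover counting error only.

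Aged was compared with young over all peaks in edgeR 4.0.16 (R 4.3.3, limma 3.58.1) by the robust quasi-likelihood F test with TMM factors and filterByExpr (minimum count 10), which tested 132055 peaks and 2728 of the 2738 weakly open promoters. The 10 left out had a median of 0.541 CPM. The threshold for a call was an adjusted p (Benjamini-Hochberg) under 0.05. Log2 fold changes are aged over young. The member rule used counts over column sums, and printed CPM per library are TMM-scaled (pair ratios add 0.25 CPM). The passage slope was fitted beside age. The fit was tested on simulated data.

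The members, the 21 gene lists, the markers and the tests were chosen with earlier results of these data known. Named were the 12 higher and 12 lower called members with the smallest p and the same sign in all 3 pairs, up to 2 per list, and those nearest the bounds, leaving out clone and predicted names. Other genes were named after their values were seen, and a few are not reported here. Replicate numbers were taken as pairs, because the titles give same-numbered libraries 1 culture code and 1 passage. Over all peaks, the deviations of such a pair from their group means had r = 0.082, 0.145 and 0.161, higher than with any other number. Alternatives were DESeq2 1.42.0, RLE factors, library totals, loess offsets, no filter, non-robust dispersions, a replicate block, thinning to 7278161 counts, other member rules and leaving libraries out.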

Additional observations from a re-analysis of the deposited data

How the results depend on the processing

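Promoters called lower in aged organoids numbered 74 in the reported fit and 44 to 79 with 1 library left out, lowest without young replicate 2 and 47 without aged replicate 3. They numbered 44 in DESeq2, 112 with the replicate block, 28 with libraries thinned to the shallowest, and 28 with both second libraries left out, an alternative added after seeing the data. In the same order, 0.25%, 1.21%, 0.342% and 0.365% of all peaks were called lower. The share of all peaks called lower was 0.51% in the reported fit and 0.277% to 0.621% with 1 library left out. Promoters called higher numbered 14 in the reported fit and 8 to 14 with 1 library left out, with 9 without aged replicate 2, 8 without aged replicate 3 and 8 without young replicate 1. They numbered 6 in DESeq2, 28 with the replicate block, 5 when thinned and 8 with both second libraries left out. In the same order, 0.313%, 1.46%, 0.459% and 0.46% of all peaks were called higher. The share of all peaks called higher was 0.619% in the reported fit and 0.331% to 0.783% with 1 library left out. Thinning tested fewer promoters and leaving out libraries used fewer samples. Why the counts differ was not tested for any of these alternatives. The median log2 fold change was -0.107 to 0.069 with 1 library left out, turning positive only without young replicate 2 (0.069) and without both second libraries (0.054). The other normalisations, filters, dispersions and member rules gave 61 to 83 lower and 11 to 19 higher. Over all peaks, these normalisations, filters and dispersions called 0.485% to 0.546% lower and 0.576% to 0.655% higher. Over the named promoters, 74 of 884 values lost a call and 8 gained one, and no called promoter changed sign. The alternatives reuse the libraries in which these promoters were called, so the kept signs are no separate support. Among those not called, Gdf6 (log2 -0.34 as reported) had 0.28 when thinned, Tdrd5 (-0.07) had 0.16 with both second libraries left out and -0.28 to 0.19 with 1 library left out, and the peak near Actb (0.08) had -0.01 when thinned and -0.11 to 0.30 with 1 library left out. No promoter was called with passage in any alternative run.

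Depth limits the faintest promoters: young replicate 1 held a median of 11 counts per promoter, and 7 were at 0 there.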
